A study of Mus musculus with 4 samples.

Results

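The DEAD- and DEAH-box helicases are enzymes that use ATP to open short RNA duplexes or to strip proteins from RNA, and are named after the letters of a conserved sequence in their helicase core. They act at almost every step in the life of an RNA, from ribosome assembly and splicing to export, translation and decay, and several also sense foreign nucleic acids in macrophages. Their members were taken here as all genes in either of the 2 deposited site tables whose symbol starts with Ddx or Dhx followed by a digit. Ddx58 and Dhx58, which encode the RNA sensors RIG-I and LGP2, were left out. This gave 44 of the 8800 genes with a called site, 29 named Ddx and 15 named Dhx, of which 41 had a called site in both mice. All 44 were found in the RefSeq gene table, 43 by symbol and Ddx39 as an older name of Ddx39a, and 230 of their 231 called sites lay inside the gene named beside them.

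The sites were called by m6A-eCLIP, an assay for N6-methyladenosine (m6A), a methyl mark on adenosines of messenger RNA. Whether each called site holds m6A was not tested. The cells were bone marrow-derived macrophages of 2 mice labelled wild type. All were exposed for 3 h to lipopolysaccharide (LPS), the bacterial outer membrane component sensed by Toll-like receptor 4. No untreated cells were analysed here. In m6A-eCLIP an antibody against m6A is crosslinked to RNA fragments and each site is placed by where reads start, and each mouse gave 1 immunoprecipitated (IP) and 1 input library. NTC appears in either table's name, with no explanation in the labels. Each site has a score and a fold of read starts, IP over input, which are the authors' own values for 1 nucleotide. Read numbers were not given, so the depth is unknown and a single fold has no error of its own. The values of both mice are therefore printed side by side, and shares carry 95% Clopper-Pearson intervals, which reflect counting error alone. A fold can also follow how abundant a transcript is, which was not tested, and in bulk RNA fewer expressing cells and less RNA per cell cannot be told apart.

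Cell identity was checked by called sites alone. All 9 macrophage markers had a called site, and 8 of them, among them Csf1r, Cd14 and Spi1, had a site enriched in both mice, Itgam being the exception. None of 7 lymphocyte markers or of 4 stromal and endothelial markers had a called site, while 2 of 5 neutrophil markers had 1 each, both enriched in both mice. Camp had 24.1 and 21.2 and Ngp 41.8 and 33.5, above the strongest shared enriched sites of Adgre1 (10.4 and 8.57) and Cd68 (8.83 and 8.89), and their part in the helicase sites was not tested. A gene without a called site may still be expressed.

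Enriched means here a fold of at least 8, a log2 fold of 3, and a shared enriched site is 1 nucleotide on 1 strand that reached it in both mice. Of the helicase sites, 152 of 196 called in mouse 1 were enriched (77.6%, 71.1% to 83.2%), against 82.2% of all called sites of that mouse. In mouse 2 the count was 158 of 197 (80.2%, 73.9% to 85.5%), against 79.7% of all. Both tables called 162 of the 231 helicase sites, and 118 of the 162 were enriched in both (72.8%, 65.3% to 79.5%), against 77.5% of all sites called in both. These 118 sites lay in 36 of the 41 genes called in both mice, or 87.8%, against 86.9% of all such genes, so the share was that of the background. At a log2 fold of 4 the genes numbered 25, with a background of 60.2%, and at a log2 fold of 1 they numbered 40, with 96.7%.

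The family's site numbers were mostly moderate. Of the 36 genes with a shared enriched site, 9 had exactly 1, 7 had 2, 17 had 3 to 5 and only Ddx24, Ddx6 and Ddx28 had more than 5. Those 3 genes held 34 of the 118 sites, or 28.8%. Over all genes with a shared enriched site, 28.1% had exactly 1, 19.4% had 2, 29.3% had 3 to 5 and 23.2% had more than 5, against 25.0%, 19.4%, 47.2% and 8.33% in the family. The genes with more than 5 held 57.7% of the sites of all genes. The median was 2 shared enriched sites per gene called in both mice, in the family and in all genes. The median over genes of the mean log2 fold of the strongest shared enriched site was 4.79 in the family and 4.81 in all genes.

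**Figure D1:**
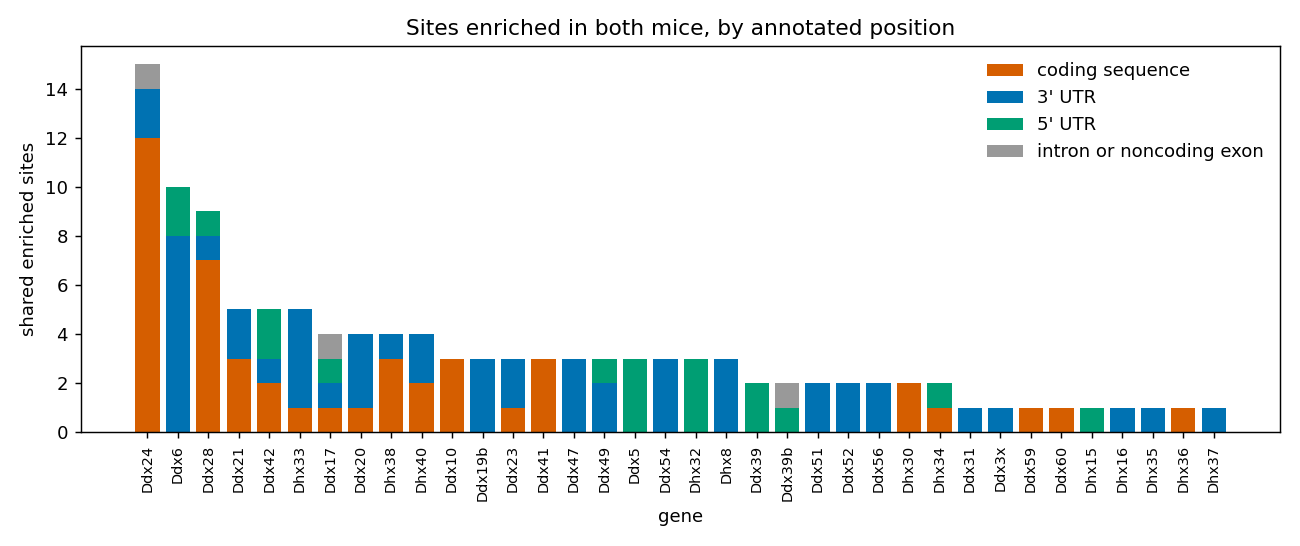
Number of sites enriched in both mice (y axis) for each of the 36 helicase genes that had any (x axis), with colours for the annotated position. Ddx24 with 15, Ddx6 with 10 and Ddx28 with 9 stand above the other genes, which had at most 5.

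By annotated position, the 3' UTR held 52 of the 118 shared enriched sites (44.1%, 34.9% to 53.5%), coding sequence 45 (38.1%, 29.4% to 47.5%) and the 5' UTR 18 (15.3%, 9.30% to 23.0%). Over all genes these shares were 38.1%, 43.4% and 13.9%, each inside the family's interval. The remaining 3 sites were annotated as noncoding exon in Ddx24, proximal intron in Ddx17 and distal intron in Ddx39b. All shared enriched sites lay in the 3' UTR in 12 genes, in coding sequence in 6 and in the 5' UTR in 4, while 10 genes had both coding and 3' UTR sites. Of the 36 genes these were 33.3%, 16.7%, 11.1% and 27.8%, against 20.4%, 17.2%, 15.1% and 26.1% of all genes with a shared enriched site. The coding-only genes were Ddx10, Ddx41, Ddx59, Ddx60, Dhx30 and Dhx36, and the 5' UTR-only genes were Ddx5, Ddx39, Dhx15 and Dhx32. Sites called in both mice had median folds of 18.1 and 19.3 in 3' UTRs (65 sites), 15.04 and 16.4 in coding sequence (63 sites), and 9.73 and 13.5 in 5' UTRs (30 sites). Over all genes these medians were 20.1 and 20.7, 19.1 and 19.5, and 11.3 and 11.6, so 5' UTR sites were the lowest of these there too. A log2 fold of 4 lowered the family's 5' UTR share to 6.56% of 61 sites. The share over all genes at that limit was not computed.

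Across the 118 shared enriched sites, log2 folds of mouse 1 and mouse 2 correlated with r = 0.71 (Pearson) and rho = 0.69 (Spearman), given as a description, since sites of one gene share a transcript and both libraries of a mouse. The median absolute difference between the mice was 0.47 on the log2 scale (0.49 over all shared enriched sites), and 17 of the 118 sites (14.4%) differed by more than 1, against 22.5% of all shared enriched sites. Ordered by the strongest shared enriched site, the family ran from Ddx24 and Ddx6 to Ddx59. For 34 of the 35 neighbouring pairs in that order the ranges of the 2 mice overlapped. The order was made from the same folds, so neighbours are close by construction and the overlap gives no verdict on differences between genes. The single gap lay between Ddx6, at 87.7 and 99.2, and Ddx42, at 61.2 and 57.8, and was not tested.

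**Figure D2:**
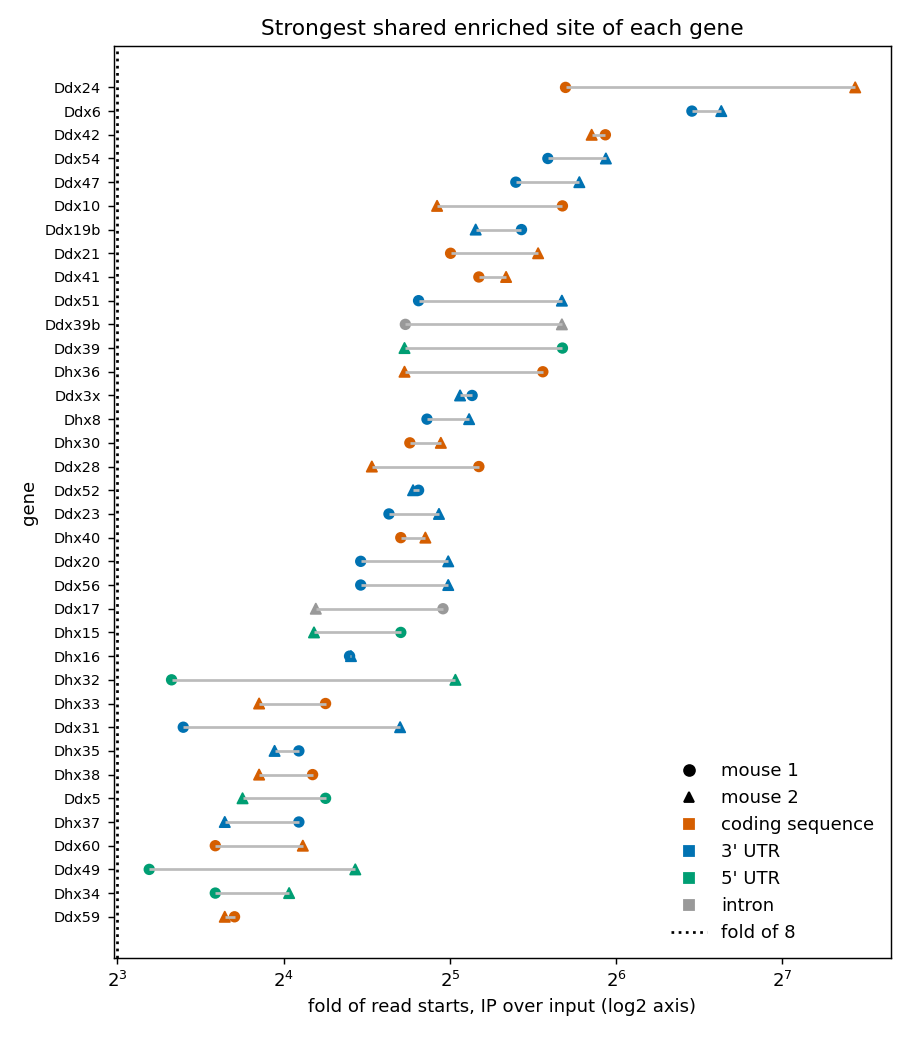
Fold of the strongest shared enriched site of each gene (x axis, log2 scale), with a circle for mouse 1, a triangle for mouse 2 and a line joining them, coloured by annotated position. Apart from the gap between Ddx6 and Ddx42, the lines of neighbouring genes overlap, and Ddx24 has the widest range at the top (51.8 and 173).

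**Figure D3:**
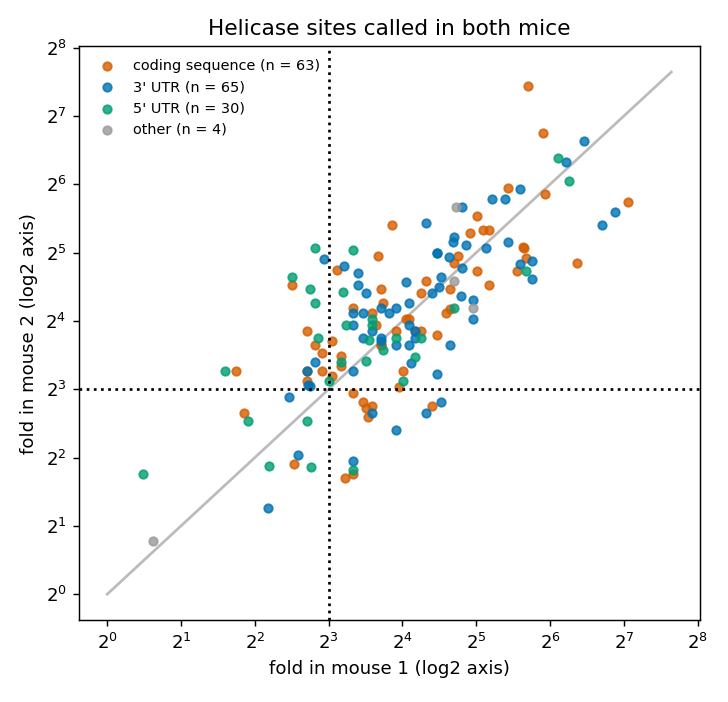
Fold in mouse 1 (x axis) against fold in mouse 2 (y axis), both on log2 scales, for the 162 helicase sites called in both mice, with dotted lines at 8 and a grey line of equal folds. Of these sites, 118 lie above both dotted lines, 14 are past the limit in mouse 1 only and 19 in mouse 2 only.

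Sites near transcript starts could be set beside the sequence, because RefSeq start windows (GRCm38.p6, the assembly also called mm10) cover 250 bases before to 50 after each start. Near the 5' end the antibody can read m6A or m6Am, a related mark on the first transcribed adenosine, which PCIF1 writes next to the cap. Windows were found for 39 of the 44 genes, the others being Ddx6, Ddx11, Ddx23, Ddx39 and Dhx38. They held 32 called sites of 20 genes, 10 of them shared enriched. The letter at the site was A in all 32 and in all 6115 called sites of any gene in such windows, which also checks the coordinates. The base before the site was C in 26 of the 32 (81.2%) and in all 10 shared enriched ones. Over all genes C came before 61.8% of sites in these windows and before 72.5% of the shared enriched ones. Within the first 50 bases of transcripts C came before 21 of 25 helicase sites (84.0%), 63.2% of sites of all genes and 30.9% of all adenosines.

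The 10 shared enriched sites of these windows and the 3 other sites on a first base of a RefSeq transcript are printed as 21 bases each, 5' to 3' on the transcribed strand, with the called adenosine in capitals, to show the bases that the calls share.
Ddx5, chr11:106789175-106789195, minus strand, first base: ctgattggacAgcagaggagc
Ddx5, chr11:106788484-106788504, minus strand, first base of a downstream start: cgcagccggcAcctcattcat
Ddx5, chr11:106789115-106789135, minus strand: tccagataccAttccccgcgg
Ddx3x, chrX:13281012-13281032, plus strand, first base: ggtgcgcttcAaagccgcagt
Ddx50, chr10:62651208-62651228, minus strand, first base: gaagtgacgcAcggtcctggc
Ddx49, chr8:70302461-70302481, minus strand, first base: cgccggaagcActcatttcta
Ddx49, chr8:70302457-70302477, minus strand: ggaagcactcAtttctaggtt
Ddx24, chr12:103425820-103425840, minus strand: aagctgctgcAgttccgggtc
Ddx28, chr8:106011447-106011467, minus strand: gcttgacgtcAttagcgcgcg
Ddx42, chr11:106216949-106216969, plus strand: ccctacccccAgtcagcaacg
Ddx42, chr11:106216953-106216973, plus strand: acccccagtcAgcaacgggcc
Dhx15, chr5:52190497-52190517, minus strand: cgcggccgccAttttagctcc
Dhx32, chr7:133776773-133776793, minus strand: gtggaaacgcAgagcagcgca

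Of the 5 sites on a first base, both of Ddx5 were shared enriched, with folds of 9.03 and 10.6 at the upstream start and of 13.4 and 12.0 at the downstream one. The Ddx3x site was called in both mice below the limit (6.80 and 3.65), and those of Ddx49 and Ddx50 were called in mouse 2 only, both at 7.70. By mean log2 fold the highest shared enriched sites in start windows were those of Ddx24, with 26.1 and 24.1, and of Dhx15, with 26.1 and 18.2, both away from the first base. In mouse 2 alone the Ddx49 site at 70302467 (21.6) stood above that of Dhx15. First bases made up 5 of the 32 helicase sites in start windows and 9.94% of those of all genes.

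Letters around the site were searched on the transcribed strand only, with the called A in the middle. GAC and AAC, the core of the context in which the METTL3 complex writes m6A, were found at none of the 32 helicase sites and at 3.37% of sites of all genes in start windows. Within the first 50 bases they were found at none of 25 helicase sites, at 1.84% of 4523 sites of all genes and at 11.1% of all adenosines. At least 1 GAC or AAC stood in the first 50 bases of 69.0% of all windows. CAT was found at 10 of the 32 sites, against 15.0% of all sites in start windows, and CAT stood in the first 50 bases of 42.2% of all windows. CCATTT, which contains CAT and was searched after the sequences were seen, surrounded the site in Dhx9, Dhx15, Dhx34 and Dhx36 (4 of 32, or 12.5%), at 1.49% of all sites in start windows, and stood in the first 50 bases of 1.15% of all windows. Dhx15 is printed above and the others follow.
Dhx9, chr1:153487638-153487658, minus strand: agtcggagccAtttcgccgct
Dhx34, chr7:16222027-16222047, minus strand: ggcgcagaccAtttaggaccg
Dhx36, chr3:62506975-62506995, minus strand: cccggacgccAttttcagcgg
The Dhx9 site had a fold of 13.0 in mouse 2 and was not called in mouse 1, and the Dhx34 site had 12.5 in mouse 2 only. The Dhx36 site had 6.69 and 22.1. The Dhx15 site was thus the single one of these 4 that was enriched in both mice.

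The ribosome biogenesis group, DEAD- and DEAH-box proteins that remodel precursor ribosomal RNA in the nucleolus, was the largest. All 16 of its genes had a called site, 14 in both mice and 12 with a shared enriched site. Over all genes called in both mice 86.9% had one. The group's 45 shared enriched sites lay in the 3' UTR in 24 cases and in coding sequence in 19, of which Ddx24 alone gave 12. Over all genes the 3' UTR held 38.1% and coding sequence 43.4% of such sites. In 7 of the 12 genes every shared enriched site was in the 3' UTR, against 20.4% of all genes with such a site. The median log2 fold of the strongest site was 5.02, with a range of 3.81 to 6.57, beside 4.81 over all genes. At a log2 fold of 4, 8 of the 14 genes called in both mice had a shared enriched site, beside 60.2% of all such genes.

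Ddx24 (ENSMUSG00000041645.14), a nucleolar helicase with a role in ribosomal RNA maturation, led the family by number of sites, while its strongest site overlapped that of Ddx6 in range and was lower than it in mouse 1. It had 19 called sites in mouse 1, 17 in mouse 2 and 15 shared enriched ones, which placed it at rank 210 of 8800 genes by that number and at rank 556 by its strongest site. On the minus strand of chromosome 12, 12 coding sites were spread over 7003 bases of genome, introns included. A tight group in coding sequence held the highest folds. At 103419325 the fold was 51.8 in mouse 1 and 173 in mouse 2, and 5 bases upstream, at 103419330, it was 59.7 and 108. At 103419267 the order of the mice turned, with 133 and 53.3. Which of these named positions was the highest thus differed between the animals, while each of them was past 50 in both. Between them the site at 103419286 had 49.5 and 33.9, and nearby 103419241 was called in mouse 1 only (14.7). A 3' UTR site at 103408192 had 118 and 48.1, and a site at 103425830, base 18 of a RefSeq transcript, was annotated as noncoding exon. A single coding site, at 103417739, was called in both mice and fell below the limit in mouse 2 (11.4 and 6.58).

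Several genes of the group carried 3' UTR sites a short distance apart. Ddx54, which acts in large ribosomal subunit assembly, carried 3 within 96 bases of chromosome 5, the strongest at 120627347 with 48.1 and 61.3. Ddx47, needed for small subunit processing, carried 3 within 123 bases of chromosome 6, the strongest at 135023546 with 42.1 and 54.9. Ddx51, a factor of large subunit RNA maturation, carried 2 that lay 5 bases apart, at 110657855 on chromosome 5 (28.1 and 51.0) and 110657860 (9.28 and 27.9). Ddx52, whose yeast relative acts in small subunit assembly, had 28.1 and 27.4 at 83962093 on chromosome 11. Ddx56, a nucleolar factor of large subunit assembly, had 22.1 and 31.8 at 6259078 on the same chromosome. All of these sites were past the limit in both mice, and the second Ddx51 site was near it in mouse 1. Single 3' UTR sites were shared in Ddx31 (10.5 and 26.0) and Dhx37 (17.0 and 12.5).

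Ddx10, Ddx21, Dhx33 and Ddx49 had a different layout. Ddx10, whose yeast relative acts in small subunit assembly, carried 3 coding sites within 201 bases of chromosome 9, the strongest at 53204314 with 51.1 and 30.3, while its 2 called 3' UTR sites did not pass the limit in both mice (7.02 and 10.6, and 6.02 and 4.09). Ddx21, a nucleolar helicase that also links ribosome production to transcription and has been described as a double-stranded RNA sensor, carried 5 shared enriched sites on chromosome 10. Its strongest, at 62598418 in coding sequence, had 32.1 and 46.2, and another, at 62582459, lay just past the limit in mouse 2 (15.5 and 8.18). Dhx33, which acts in ribosomal RNA transcription, carried 5, of which 4 were in the 3' UTR, with every fold between 11.03 and 19.1. Ddx49 carried 2 in the 3' UTR and the start site shown above (9.14 and 21.6), which was its strongest by mean log2 fold. The 3' UTR sites of Ddx49 also lie under Homer3 in the RefSeq table, which gives no strand, so they are uncertain.

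No shared enriched site was found for Ddx18, Ddx27, Ddx50 and Ddx55 of this group. Ddx18 had 4 called sites in each mouse, 2 of them enriched in mouse 1 (both 10.03) and none in mouse 2, where the highest reached 7.38. Ddx55 was the reverse, with 2 enriched sites in mouse 2 (9.63 and 8.67) and 1 called site in mouse 1 at 3.01. Ddx27 was called in mouse 1 only, at 1 site 13 bases before its RefSeq start (20.1), and Ddx50, the closest relative of Ddx21, in mouse 2 only, at 3 sites of 7.70 to 9.63. With 1 IP library per mouse, and no call standing for either a low fold or few reads, these cases do not show a difference between the animals.

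The spliceosome group holds helicases that drive the rearrangements of splicing. Of the 12 symbols, Ddx46 had no called site, and all other 11 had a shared enriched site. Over all genes called in both mice 86.9% had one. The group held 30 such sites, with a median log2 fold of the strongest of 4.78 (range 4.01 to 5.89), beside 4.81 over all genes. At a log2 fold of 4, 8 of the 11 had one, beside 60.2% of all genes called in both mice. Ddx42, a protein associated with the U2 snRNP, had the highest folds. Its coding sites on chromosome 11 at 106248078 (61.2 and 57.8) and 106247810 (50.1 and 33.7) stood above its 3' UTR site (15.04 and 18.3) and its 2 start sites (12.03 and 15.4, and 8.02 and 8.67). In both mice these were its highest sites, while another coding site, at 106248051, had only 6.52 and 8.67.

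Ddx41, a spliceosome component also described as a DNA sensor in the STING pathway, carried 3 coding sites on chromosome 13, with 36.1 and 40.4 at 55536530 and 32.1 and 26.5 only 7 bases away. This pair also lies under the predicted gene Gm46416 in the RefSeq table. The third coding site, at 55530602 near the other end of the gene, had 19.1 and 21.2. Dhx8, the helicase that frees the spliced mRNA, carried 3 in the 3' UTR on chromosome 11, the strongest at 101767151 with 29.1 and 34.7. Ddx23, the U5 snRNP helicase that displaces U1 from the 5' splice site, had 24.8 and 30.6 in its 3' UTR and a coding site that was close to the limit in mouse 1 (8.69 and 27.0). Dhx38, which acts before the second splicing step, carried 4 with every fold between 11.4 and 21.2. Dhx38 also had the largest relative difference between the mice of all helicase sites, at a 5' UTR position of chromosome 8, 109565617, with 7.02 in mouse 1 and 33.7 in mouse 2. Dhx16, which activates the spliceosome for the first step, rested on 1 3' UTR site (21.1 and 21.2), and Dhx35, a protein found in spliceosomes, on another (17.0 and 15.4).

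Dhx15, the helicase that takes apart spent spliceosomes, and its relative Dhx32, whose own role is less clear, had shared enriched sites in the 5' UTR and nowhere else. Dhx15 had the start site shown above, and its site at a 3' splice site was called at 1.54 and 1.72. Dhx32 had 3, among them a pair 5 bases apart on chromosome 7 in which the mice were in opposite order, with 10.03 and 32.7 at 133759721 and 18.1 and 11.1 at 133759726. Dhx40, placed in the group by kinship, carried 2 coding and 2 3' UTR sites, the strongest at 26.1 and 28.9. All of them also lie under the predicted gene Gm42085 in the RefSeq table, so they too are uncertain.

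In mRNA export, Ddx19b, which releases export factors at the nuclear pore, carried 3 sites within 48 bases of its 3' UTR on chromosome 8. They had 43.1 and 35.6 at 111008137, 20.1 and 43.3 at 111008155 and 31.1 and 16.4 at 111008107. All 3 were past 16 in both mice, and the highest differed between them. No site was called for Ddx19a, its near-identical neighbour, and the sources used here do not say how reads matching both copies were assigned. The same holds for Ddx3x and Ddx3y, for Ddx39 and Ddx39b and for Ddx5 and Ddx17. The export helicases Ddx39 and Ddx39b, close relatives of each other, both had shared enriched sites in the 5' UTR. Ddx39 had 51.1 and 26.5 at 83715249 on chromosome 8 and 11.7 and 13.2 at 83715272, with a position between them that was enriched in mouse 2 only (5.68 and 25.0). Ddx39b had 9.44 and 15.3 in the 5' UTR and its strongest site in a distal intron, at 35249967 on chromosome 17, with 26.6 and 51.0.

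Among helicases of translation and mRNA turnover, 6 of 7 symbols had called sites in both mice and 4 had a shared enriched site. Over all genes called in both mice the share with one was 86.9%. The exception without called sites was Ddx3y, the Y-linked copy of Ddx3x. Ddx6 (ENSMUSG00000032097.10), which links deadenylation to decapping in P-bodies and represses translation, carried 10, the second highest number of the family and rank 510 among all genes. In its 3' UTR on chromosome 9, 8 sites lay within 664 bases, the strongest at 44637360 with 87.7 and 99.2, followed by 44636696 with 74.2 and 79.9 and 44636701 with 104 and 42.4. Its 5' UTR sites at 44607232 (76.2 and 66.4) and 44607265 (69.2 and 83.8) were the only 5' UTR sites of the family past 50 in both mice. Both positions thus held high folds in both animals, and no coding site of Ddx6 was called. Over the family, 8 sites in Ddx24, Ddx6 and Ddx42 were past 50 in both mice.

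**Figure D4:**
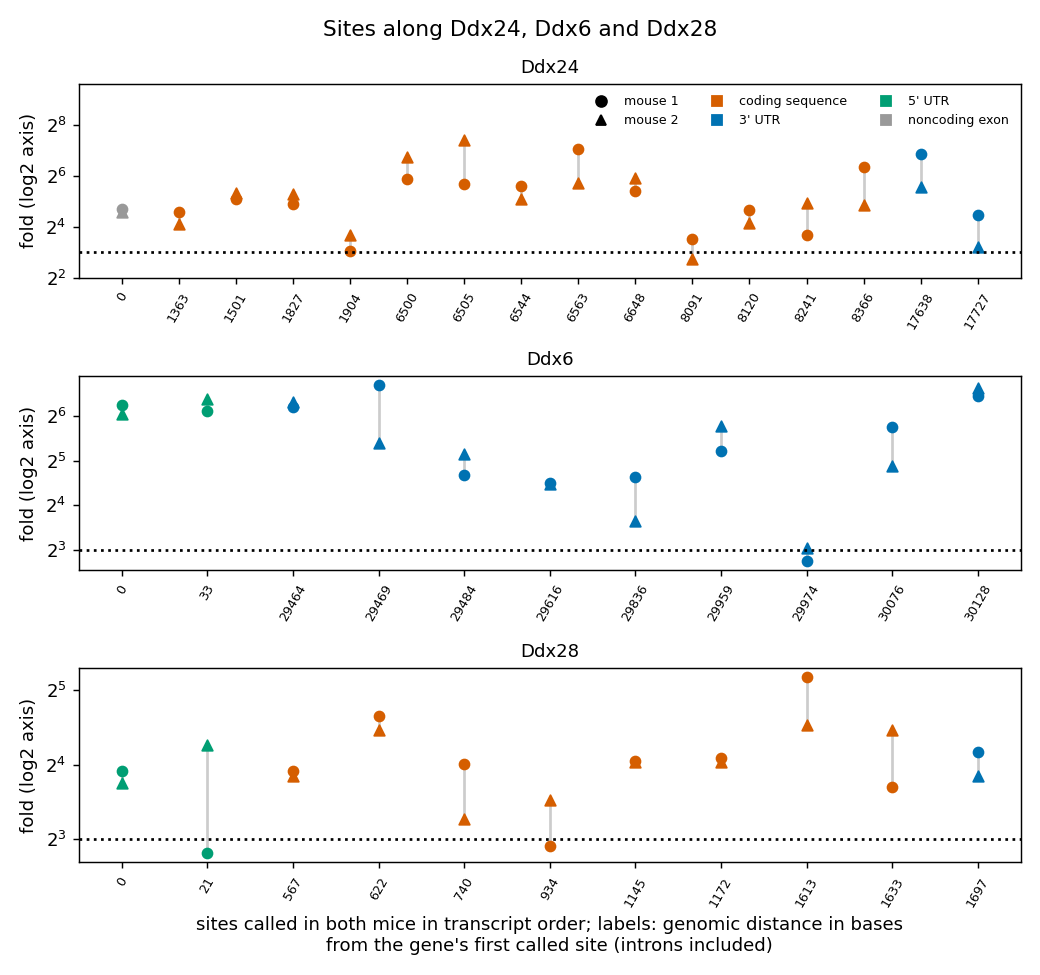
Fold (y axis, log2 scale) at each site called in both mice along Ddx24, Ddx6 and Ddx28, in transcript order, with the distance in bases from the gene's first called site on the x axis (not to scale, introns included). Circles are mouse 1, triangles mouse 2, and the dotted line is a fold of 8. In Ddx24 the coding sites dominate, in Ddx6 the sites sit at both ends, and in Ddx28 all folds stay at 36.1 or lower.

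Ddx3x, a helicase of translation initiation on structured 5' UTRs, rested on 1 shared enriched site in the 3' UTR (35.1 and 33.4, at 13291558 on chromosome X), with a neighbour called in mouse 2 only (37.6). Dhx36, which unwinds G-quadruplexes, had 1 coding site (47.1 and 26.5, at 62470662 on chromosome 3). Dhx34, a factor of nonsense-mediated decay, had 2, with 12.03 and 16.4 in the 5' UTR and 13.04 and 12.5 in coding sequence. Dhx29, needed to scan structured 5' UTRs, and its relative Dhx57 both had called sites and none shared and enriched. Dhx29 was enriched at different positions in the 2 mice, 29 bases apart (9.03 in mouse 1 and 9.63 in mouse 2), and Dhx57 at a single 3' UTR site in mouse 1 (15.04 and 5.30), which also lies under the predicted gene Gm52289 in the RefSeq table.

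The helicases of transcription and small RNA processing were Ddx5, Ddx17, Ddx20 and Dhx9, with no called site for Ddx1. Ddx5 and Ddx17 are close paralogues that act as transcriptional coactivators and in the first cut of microRNA precursors. The strongest site of Ddx5 was in the 5' UTR (19.1 and 13.5 at 106789125), 60 bases from its first-base site, and its 3 coding sites stayed at 5.80 or lower. The strongest and the upstream first-base site also lie under Cep95 in the RefSeq table. In Ddx17 the strongest was in a proximal intron, at 79533465 on chromosome 15 (31.1 and 18.3), followed by a 3' UTR site (17.4 and 10.4), a 5' UTR site (11.4 and 10.6) and a coding site near the limit (8.22 and 9.15). Ddx20, the Gemin3 subunit of the SMN complex that assembles snRNPs, carried 3 3' UTR sites within 79 bases and 1 coding site, the strongest at 105678524 on chromosome 3 (22.1 and 31.8). Dhx9 was called at its start site in mouse 2 alone.

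Both mitochondrial members had their strongest sites in coding sequence. Ddx28, a factor of mitochondrial ribosome assembly, carried 9, of which 7 lay in coding sequence. They spread over 1697 bases, in a gene that spans only 1871 bases of genome. The strongest, at 106009844 on chromosome 8, had 36.1 and 23.1, and every fold lay between 9.63 and 36.1. Its sites were thus many but lower than the highest of Ddx24 and Ddx6. Dhx30, an RNA-binding helicase of mitochondrial ribosome assembly, had 9 called sites in mouse 1 and 7 in mouse 2, every one in coding sequence. Only 2 were shared and enriched, at 110087930 on chromosome 9 (27.1 and 30.8) and 110087554 (20.1 and 24.1), and of the 4 called sites between them 3 were past the limit in mouse 2 only, with 5.68 and 23.1 at 110087653, 6.52 and 14.4 at 110087753 and 7.52 and 9.63 at 110087841. The remaining one was called in mouse 1 only (4.01). Further upstream, sites at 110088037 (21.1 and 6.74) and 110088193 (12.03 and 6.74) went the other way, past the limit in mouse 1 only.

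Genes described as innate sensors or sensor cofactors overlap the groups above. Of 9 symbols 7 were called in both mice. They held 17 shared enriched sites, 9 of them coding, beside 43.4% of all such sites. All 7 had a shared enriched site. Over all genes called in both mice 86.9% had one. Ddx60, an interferon-induced helicase and the only one of the list with no other role in it, had 1 coding site. The site, at 61942388 on chromosome 8, had 12.03 and 17.3. No other site was called in the gene, which spans 109632 bases of genome, introns included. Ddx59 was in no list and had 1 coding site (13.04 and 12.5), the lowest strongest site of the family. Ddx11, a DNA helicase of sister chromatid cohesion, had 1 called 3' UTR site per mouse at positions 66 bases apart (12.03 and 12.5). The germline helicases Ddx4, Ddx25, Ddx43 and Ddx53 had no called site.

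By class, 24 of 27 Ddx genes (88.9%) and 12 of 14 Dhx genes (85.7%) called in both mice had a shared enriched site. The share of all such genes was 86.9%. At a log2 fold of 4 the counts were 19 and 6, beside 60.2% of all genes called in both mice. The median log2 fold of the strongest site was 5.15 and 4.29, beside 4.81 over all genes. Dhx36 was the highest Dhx gene, with a mean log2 fold of 5.14 at its strongest site, and 12 Ddx genes stood above it. That limit was itself taken from the values compared. The difference between the classes was seen after the values and was not tested.

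RNA helicases with other names and partner proteins served as neighbours of the family. Of 22 symbols listed for other RNA helicases, 13 were called in both mice and 12 had a shared enriched site. The list counts Mtrex also under its older name Skiv2l2, which had no called site. Those 12 held 121 such sites, 103 in coding sequence, beside 43.4% of all shared enriched sites. Of the 121, 63 belonged to Helz2 (572 and 639 at its strongest) and 29 to Znfx1 (177 and 130), both large interferon-induced helicases. Of the 103 coding sites, 57 lay in Helz2 and 27 in Znfx1. Eif4a1, the cap-binding complex helicase and itself a DEAD-box protein, had 1 called site in 1 mouse and none enriched. Of 33 partners, such as G-patch proteins that activate Dhx15 and binders of Ddx6, 27 were called in both mice and 22 had a shared enriched site. Of genes called in both mice, 86.9% of all had one, 92.3% of the other RNA helicases and 81.5% of these partners. Son (149 and 131), Eif4g1 (67.0 and 111) and Tfip11, the partner of Dhx15 in spliceosome release (70.2 and 71.3), were the highest, while both called sites of Cnot1, which recruits Ddx6, were below the limit.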

How the data were processed

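Per the submitters' processing notes, cutadapt 2.7, STAR 2.6.0c and UMI-tools 0.5.1 were used, with the builds mm10 and hg38. For the site caller, its score's definition and the annotation, the sources used here give nothing. The score is the authors' deposited value per site, all above 10. The fold is the authors' deposited ratio of read starts, IP over that mouse's input (per the file headers). After division by 1.003 in mouse 1 and 0.963 in mouse 2, constants found from the values, 62.1% and 62.0% of folds were whole within 1e-06. Read numbers were not given, so depth is unknown and no model or test across replicates was run.

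Sites with 1 gene name were used, and no site with joined names held a member. The end of each interval was taken as the 1-based position. No helicase site called in both tables was annotated differently in them. The strongest site is the shared enriched site with the highest mean log2 fold. Members, lists and rules were chosen with earlier results of these data known. By rule, the 4 highest genes of each role list, the 6 with the most shared enriched sites, paralogue pairs and genes without a shared enriched site were named. Other members were named after their values were seen. One gene that the rule names among other RNA helicases is not reported here. Sequences are from RefSeq (GRCm38.p6), and no genome sequence was used, so letters around coding and 3' UTR sites were not analysed here. The joining of tables was tested on simulated data. Python 3.11.15, pandas 2.3.3, NumPy 2.4.6, SciPy 1.17.1 and Matplotlib 3.10.9 were used.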

Additional observations from a re-analysis of the deposited data

How the results depend on the processing

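The limit on the fold moved the counts of sites most. At a log2 fold of 4, enriched helicase sites numbered 83 in mouse 1 and 92 in mouse 2, shared enriched sites 61, the 5' UTR share of them 6.56%, and partner genes with a shared enriched site 12 of 27. The other 77 alternative values of counts and shares stayed within 1.5 times the main count or inside the main interval. Some came from the log2 fold of 4 too, such as 25 helicase genes with a shared enriched site. Others came from a log2 fold of 1, a score of at least 20 and the limit of 8 set before each table's constant. Sharing or merging within 5 bases and joined names gave more of them. The rest came from either mouse alone (41 genes in each, and 152 or 158 sites) and, chosen after seeing the data, the shares without Ddx24, Ddx6 and Ddx28. Some of the 77 values could not move and say nothing about stability. Joined names changed no value because no site with joined names held a member. Ddx11 and the germline helicases had no site called in both mice, so their counts were fixed too. No paired analysis was possible because the deposited fold already sets IP against input of the same mouse and no result comes from a test. Depth is unknown, so sites with folds near 8 in 1 mouse cannot be called different between mice.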
